A study of Homo sapiens with 4 samples.

Results

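PTBP1 was silenced in the same cells with 2 different siRNAs, and the comparison of those libraries shows which transcripts differed by the siRNA used against the same target. The cells were DU145, an established human prostate cancer line. They received control siRNA, PTBP1 siRNA 1, PTBP1 siRNA 2 or DNMT3B-L siRNA at 75 nM with Lipofectamine RNAiMAX, and RNA was collected 48 h later for paired-end sequencing. Each siRNA has 1 library, so the difference between siRNA 1 and siRNA 2 also holds every difference between 2 cultures and 2 library preparations, and these cannot be told apart. No p-value can be given. The comparison used the 11075 genes that are listed in all 4 tables with an average of at least 5 CPM (read pairs scaled to a common library total), of 23585 genes in any table and 20474 in all 4. A gene was counted as different when log2(CPM + 1) differed by at least 1, which is called 2-fold here.

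PTBP1, the polypyrimidine tract binding protein, binds pyrimidine-rich stretches of pre-mRNA and mostly represses the inclusion of nearby exons. PTBP2, its paralog in neurons, is kept low in other cells because PTBP1 causes skipping of a PTBP2 exon and the shortened mRNA is degraded. An siRNA is loaded into an Argonaute protein, where its guide strand directs cleavage of mRNAs that match it closely. Guide strands can also act like microRNAs and lower mRNAs whose 3′ UTRs match only the seed, the guide bases next to its 5′ end.

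The libraries hold between 22332245 and 24088975 read pairs and all hold the keratins of simple epithelium, with little of the epithelial adhesion gene EPCAM. The keratin KRT8 lay between 656 and 1444 CPM, KRT18 between 169 and 276 CPM and KRT19 between 108 and 280 CPM. EPCAM was between 2.24 and 11.6 CPM. KRT5, KLK2, KLK3, the blood cell genes PTPRC, CD3E and CD68, the fibroblast gene DCN and the neuroendocrine gene CHGA are not listed in any of the 4 tables, whereas the collagen gene COL1A1 was at 16.1 to 27.0 CPM. Mitochondrial genes took 8.47% to 9.83% of the summed CPM.

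The target was low with both siRNAs and lower with siRNA 2. PTBP1 was at 928 CPM with control siRNA, 268 CPM with siRNA 1, 135 CPM with siRNA 2 and 982 CPM with DNMT3B-L siRNA. The level with siRNA 1 was 1.98 times that with siRNA 2 (95% counting interval 1.90 to 2.07), just under the 2-fold line on the log2(CPM + 1) scale (0.98). PTBP2 was at 8.26 CPM with control siRNA, 60.9 CPM with siRNA 1, 70.9 CPM with siRNA 2 and 6.45 CPM with DNMT3B-L siRNA. The PTBP2 levels of the 2 PTBP1 siRNA libraries were far above the other 2 libraries and differed from each other by 1.16 times (interval 1.08 to 1.25). PTBP3, the third family member, was at 254, 268, 167 and 231 CPM in the same order of libraries, so that only the siRNA 2 library lay outside the others. The intervals here and below are exact 95% intervals of the ratio of 2 libraries from their read pairs, and they cover counting error only.

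The values can be set beside 2 short stretches of PTBP1. For each library, the difference from the mean of the other 3 was fitted over 10499 genes for each of 13970 words of 7 bases, by whether the gene's 3′ UTR held the word, with UTR length and GC content as covariates. The word with the lowest t was CTGCACA in the siRNA 1 library (-23.4) and AAGATCA in the siRNA 2 library (-19.5). Such a word was not particular to the PTBP1 siRNAs. In the DNMT3B-L siRNA library AACAACA had a t of -17.8, and the lowest with control siRNA was -5.67. CTGCACA and AAGATCA each occur at a single place in PTBP1, in the coding sequence. The 19 bases that a guide strand would pair with there, if the word lay opposite guide bases 2 to 8, are shown with the word in capitals. The siRNA sequences themselves were not used here.
PTBP1 site 1, chr19:810750-810768, plus strand, GRCh38, exon 15 of 15: ccctcattgacCTGCACAa
PTBP1 site 2, chr19:804845-804863, plus strand, GRCh38, exon 7 of 15: gcacagtgttgAAGATCAt
Both stretches were read from GENCODE v29 transcripts and each is found in 10 of the 21 annotated PTBP1 transcripts. Of the 13970 words, 4483 (32.1%) occur in at least 1 PTBP1 transcript. The seeds that would pair with the words, UGUGCAG and UGAUCUU, are those of 0 of the 2370 human mature microRNAs in the RefSeq table.

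In the direct comparison, 242 genes were 2-fold higher with siRNA 1 (2.19% of those compared) and 193 were 2-fold lower (1.74%). The median log2 ratio was 0.01. The counting interval excluded a ratio of 1 for 7852 genes (70.9%). For 165 of the 242 and 139 of the 193 genes the whole interval lay beyond 2-fold, and for the others it reached below 2-fold. At the line, ACSS1 (1.00, at 13.7 and 6.35 CPM with siRNA 1 and siRNA 2) was just inside and TCEB3 (84.1 and 41.6 CPM) just outside on the higher side. On the lower side LRFN3 (23.1 and 47.2 CPM) was just inside and SPRYD3 (29.1 and 59.3 CPM) just outside. The plot of the 2 libraries shows genes past the line at low and high levels, with a median average level of 31.9 CPM (5.02 to 10159) for the higher and 44.0 CPM (5.55 to 1457) for the lower genes.

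**Figure D1:**
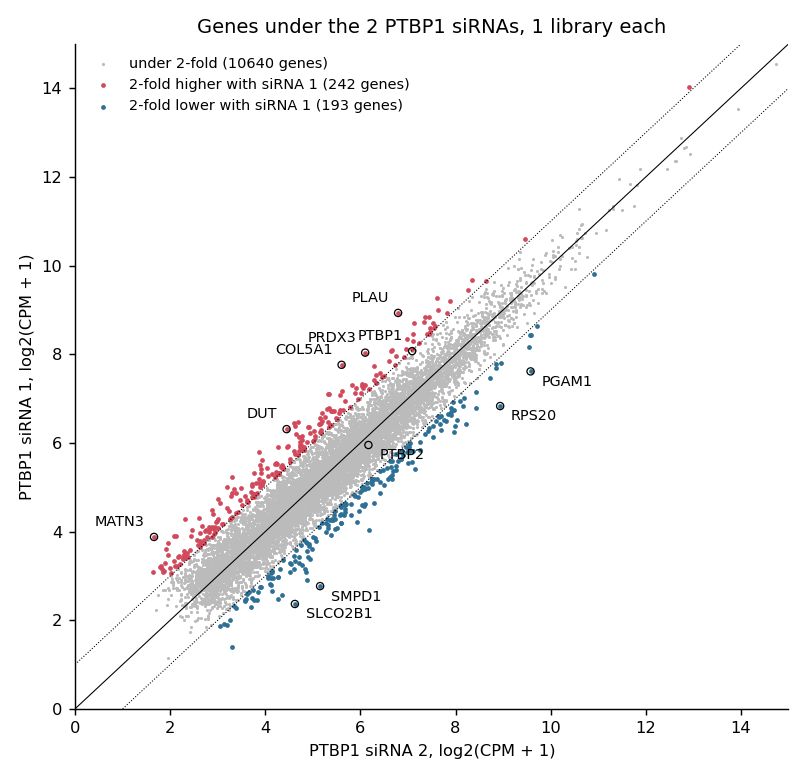
Level of each of the 11075 genes with PTBP1 siRNA 2 (x axis) and PTBP1 siRNA 1 (y axis), both as log2(CPM + 1), with 1 point per gene. The solid line marks equal levels and the dotted lines 2-fold. The 242 higher and 193 lower genes lie on either side of the diagonal, PTBP1 lies just inside the upper dotted line and PTBP2 near the diagonal.

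The count can be set beside those of the other pairs of libraries. Between control siRNA and siRNA 1, 246 genes differed 2-fold in either direction (2.22%), and between control siRNA and siRNA 2 the number was 225 (2.03%). The 435 genes that separated the PTBP1 siRNAs were more than either of these, and more than the 173 between control siRNA and DNMT3B-L siRNA (1.56%). DNMT3B-L siRNA differed from siRNA 1 for 481 genes (4.34%) and from siRNA 2 for 359 genes (3.24%). The SD of the log2 ratio over all genes was 0.45 between the 2 PTBP1 siRNAs, 0.39 between control siRNA and siRNA 1 and 0.38 between control siRNA and siRNA 2. These pairs share libraries, and with 1 library each no spread between cultures is known.

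Of the 2, siRNA 1 stood farther apart by the number of genes at 2-fold. The median absolute log2 distance over all genes was alike, at 0.213 for siRNA 1, 0.202 for siRNA 2 and 0.214 for DNMT3B-L siRNA, beside 0.176 for control siRNA. The siRNA 1 library had 249 genes at least 2-fold from the median of the other 3 libraries (2.25%), against 181 for siRNA 2 (1.63%), 154 for DNMT3B-L siRNA (1.39%) and 66 for control siRNA (0.596%). In both PTBP1 siRNA libraries more of these genes lay below the other 3 than above, with 161 below and 88 above for siRNA 1 and 144 below and 37 above for siRNA 2. Control siRNA was the only library with more genes above (46) than below (20).

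A level between control siRNA and DNMT3B-L siRNA, the mean of their log2 values, served as a reference for which siRNA had moved. The DNMT3B-L siRNA library, which sets part of this reference, had a marked word of its own (AACAACA, above). Among the 193 genes lower with siRNA 1, siRNA 1 alone was 2-fold from the reference for 92, siRNA 2 alone for 14, both for 2 and neither for 85. Their median distance from the reference was -0.99 with siRNA 1 and 0.25 with siRNA 2. Among the 242 genes higher with siRNA 1, siRNA 2 alone was 2-fold away for 70, siRNA 1 alone for 36, both for 1 and neither for 135, with median distances of 0.52 for siRNA 1 and -0.71 for siRNA 2. For 208 of the 242 and 144 of the 193 genes the 2 siRNAs lay on opposite sides of the reference. The 2 genes that both siRNAs moved on the lower side were SEC24D, a cargo-binding subunit of the COPII coat, and SNAP25, a membrane fusion protein of synapses. The single gene on the higher side was ANGPTL4, a secreted inhibitor of lipoprotein lipase.

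**Figure D2:**
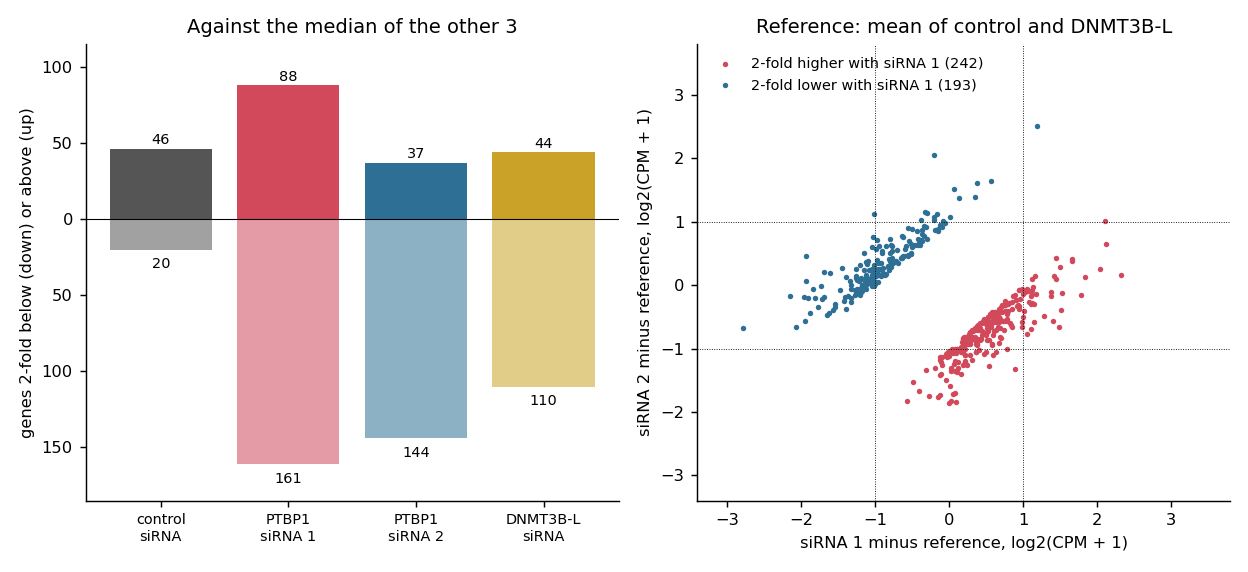
Left: number of genes at least 2-fold above (upward bars) and below (downward, paler bars) the median of the other 3 libraries, for each library. Right: the 435 genes that differ 2-fold between the PTBP1 siRNAs, by the distance of siRNA 1 (x axis) and siRNA 2 (y axis) from the mean of control and DNMT3B-L siRNA, in log2(CPM + 1), with dotted lines at 2-fold. The siRNA 1 bars are the longest (88 and 161), and most lower genes lie to the left while most higher genes lie towards the bottom.

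The gene with the lowest ratio was SMPD1, the lysosomal acid sphingomyelinase. It was at 34.9 CPM with control siRNA, 5.81 CPM with siRNA 1, 34.5 CPM with siRNA 2 and 17.8 CPM with DNMT3B-L siRNA, and 5.94-fold higher with siRNA 2 than with siRNA 1 (interval 4.96 to 7.16). RPS20, a protein of the small ribosomal subunit, was at 716, 113, 489 and 847 CPM in the same order and was the gene farthest below the other 3 libraries with siRNA 1 (-2.66 on the log2 scale). ZDHHC4, a palmitoyltransferase, was at 26.0, 6.48, 28.6 and 28.9 CPM. In all 3 genes the siRNA 1 library was the lowest of the 4. RPS20 has processed copies in the genome that can share its reads, so its value is uncertain in part.

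These 3 genes have a common feature that the words did not capture, and it was looked for after their values were seen. Each holds, in its coding sequence, a stretch with 15 of 19 bases identical to PTBP1 site 1. For 2 of them, and for 2 further genes with long uninterrupted matches in the coding sequence, the stretches (GRCh38, as all below) are shown with the bases identical to site 1 in capitals.
SMPD1, chr11:6391679-6391697, plus strand: tCCTCAcTGACCTGCACtg
ZDHHC4, chr7:6582081-6582099, plus strand: CCtTCATTGtCCTGCACct
MDGA1, chr6:37652103-37652121, minus strand: agCTCATTGACCTGCACtt
MEN1, chr11:64807583-64807601, minus strand: CttcCATTGACCTGCACAc
MDGA1, a cell surface protein that restrains synapse formation, shares a run of 15 bases with site 1, the longest of any gene compared other than PTBP1. It was at 14.6 CPM with control siRNA, 5.23 CPM with siRNA 1, 13.3 CPM with siRNA 2 and 8.19 CPM with DNMT3B-L siRNA. MEN1, the tumour suppressor menin, shares a run of 14 bases and was at 145 CPM, 62.1 CPM, 129 CPM and 142 CPM. Of 192 genes with at least 15 of 19 bases identical to site 1, 10 were 2-fold lower with siRNA 1 than with siRNA 2 (5.21%) and 2 were 2-fold higher (1.04%), against 1.68% and 2.21% of the 10877 genes with fewer. The 10 include SMPD1, RPS20 and ZDHHC4, whose values led to the search, and without these 3 the count was 7 of 189 (3.70%). The median log2 ratio of the 192 was -0.08, so most genes with such a stretch differed little.

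The paralog PTBP3 is close to both sites. Identical bases are again in capitals.
PTBP3 against site 2, chr9:112252754-112252772, minus strand: GCACAGTcTTGAAGATtAT
PTBP3 against site 1, chr9:112223909-112223927, minus strand: CCCTCATTGAgCTtCAtAA
It has 17 of 19 bases of site 2 and 16 of site 1, and its level was 1.60-fold higher with siRNA 1 than with siRNA 2 (interval 1.54 to 1.67). With siRNA 1, PTBP3 was 0.21 above the median of the other 3 libraries on the log2 scale, and with siRNA 2 it was 0.60 below. RAB1A, a GTPase of transport from the endoplasmic reticulum to the Golgi, also has 17 of 19 bases of site 2, with a longer uninterrupted run (14 bases against 8), and it was at 167, 158, 162 and 149.6 CPM, with siRNA 2 within the range of the others. Among the 177 genes with at least 15 bases of site 2, 5 were 2-fold higher and 2 were 2-fold lower with siRNA 1 (2.82% and 1.13%, against 2.18% and 1.75% of the others).

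Other genes at the lower end carry the word CTGCACA in the 3′ UTR. PGAM1, a phosphoglycerate mutase of glycolysis, was at 785 CPM with control siRNA, 195 CPM with siRNA 1, 763 CPM with siRNA 2 and 947 CPM with DNMT3B-L siRNA, a 3.92-fold difference between the PTBP1 siRNAs (interval 3.79 to 4.05). Its value is uncertain in part, because the processed pseudogenes RP11-490H24.5 and RP11-887P2.3, which share 91.6% and 95.8% of their 31-base words with PGAM1 transcripts, had the same pattern (4.94 and 7.47 CPM with siRNA 1, 18.8 to 36.9 CPM elsewhere) and their reads may be PGAM1 reads. PAK4, a kinase that acts downstream of CDC42, was at 262, 84.4, 296 and 255 CPM. ATG9A, the membrane protein of early autophagosomes, was at 205 CPM, 75.4 CPM, 249.6 CPM and 211 CPM. HN1 (JPT1 in the current annotation) was at 124 CPM with control siRNA, 41.8 CPM with siRNA 1, 139.8 CPM with siRNA 2 and 160.3 CPM with DNMT3B-L siRNA. In each of these genes the siRNA 1 value stood alone below 3 similar values. The 19 bases around their words are shown with the word in capitals.
PGAM1, chr10:97432583-97432601, plus strand: gcccctcccacCTGCACAt
ATG9A, chr2:219219665-219219683, minus strand: ccccccatcacCTGCACAt
HN1, chr17:75136042-75136060, minus strand: atgcttgtgaaCTGCACAa
In all, 12, 14 and 11 of the 19 bases are identical to site 1, of which 5, 7 and 3 lie among the 11 bases before the word. Of the 15 genes with the lowest ratios, 13 have a 3′ UTR, and 5 had the word there (15.6% of all genes with a 3′ UTR). The word was in the 3′ UTR or the coding sequence of 7 (33.3% of all genes with a 3′ UTR). At least 15 of 19 bases of site 1 were found in 3 (1.73% of all genes searched), and 5 had none of these. The pseudogenes RP11-490H24.5 and RP11-887P2.3, which have no annotated 3′ UTR, were among these 5. SLCO2B1, an organic anion transporter, was one of the 5 and differed because siRNA 2 was high: it was at 6.04 CPM with control siRNA, 4.15 CPM with siRNA 1, 23.6 CPM with siRNA 2 and 3.99 CPM with DNMT3B-L siRNA. SEC24D (34.6, 15.4, 71.1 and 29.6 CPM) was low with siRNA 1 and high with siRNA 2.

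At the higher end 2 kinds of gene are seen in the plot by library, and some genes were of neither kind. In the first kind siRNA 2 stood alone below. PRDX3, a peroxidase of mitochondria, was at 230.1 CPM with control siRNA, 261 CPM with siRNA 1, 67.6 CPM with siRNA 2 and 259 CPM with DNMT3B-L siRNA (3.87-fold between the PTBP1 siRNAs, interval 3.66 to 4.09). DUT, which removes dUTP before it can be built into DNA, was at 69.1, 78.3, 20.8 and 88.8 CPM. The motor subunit KIF3B was at 70.5, 86.2, 23.1 and 102 CPM, and ATL3, which fuses tubules of the endoplasmic reticulum, was at 142, 137, 39.2 and 118 CPM. PRDX3, DUT and ATL3 hold AAGATCA in the 3′ UTR, and KIF3B holds it in the coding sequence only.
PRDX3, chr10:119168040-119168058, minus strand: ttaagctaacaAAGATCAt
DUT, chr15:48342227-48342245, plus strand: tgatcaaggaaAAGATCAt
ATL3, chr11:63629299-63629317, minus strand: atcttaacgtgAAGATCAa
The word is again in capitals, and the ATL3 stretch is the first of 3 in that UTR. In the second kind siRNA 1 stood above. PLAU, the urokinase that activates plasminogen, was at 174 CPM with control siRNA, 487 CPM with siRNA 1, 109.8 CPM with siRNA 2 and 173 CPM with DNMT3B-L siRNA (4.44-fold, interval 4.25 to 4.64). COL5A1, a fibrillar collagen chain, was at 99.2, 216, 47.6 and 17.9 CPM, so that the other 3 libraries differed too. The sheddase ADAM8 (14.7, 36.7, 8.85 and 6.63 CPM), the semaphorin receptor NRP2 (23.6, 54.1, 13.7 and 14.1 CPM) and the Notch ligand JAG1 (6.71, 18.5, 3.97 and 6.05 CPM) were likewise highest with siRNA 1. The Notch-modifying enzyme LFNG was at 3.42, 13.8, 3.32 and 1.97 CPM. MATN3, a cartilage matrix protein with the highest ratio of all, was low at 4.89, 13.7, 2.16 and 9.58 CPM, where 1 read pair is about 0.0415 CPM. It was highest with siRNA 1 and lowest with siRNA 2, and farther from the reference with siRNA 2 (-1.32) than with siRNA 1 (0.90). Of the 15 highest ratios, 5 had AAGATCA in the 3′ UTR (13.6% of all genes with a 3′ UTR). It was in the 3′ UTR or the coding sequence of 7 (30.9% of all genes with a 3′ UTR). At least 15 bases of site 2 were found in 0 (1.60% of all genes searched), and 8 had none of these. The words did not sort these genes by kind. COL5A1 holds 1 and JAG1 2 copies of AAGATCA in the 3′ UTR, whereas PLAU holds 1 and OLFML2A, another of the 15, holds 2 copies of CTGCACA. SMPD1, with the lowest ratio, holds AAGATCA.

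**Figure D3:**
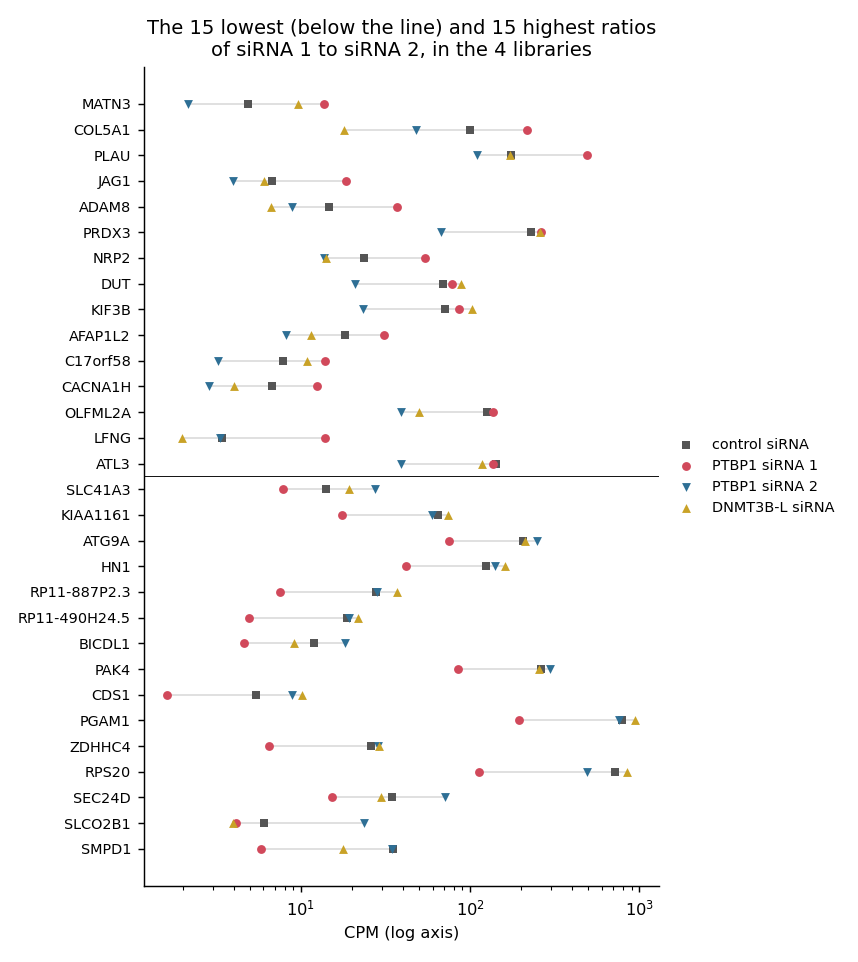
CPM (log axis) in each of the 4 libraries for the 15 genes with the highest (above the line) and the 15 with the lowest ratio of siRNA 1 to siRNA 2, ordered by the ratio. Squares are control siRNA, circles siRNA 1, downward triangles siRNA 2 and upward triangles DNMT3B-L siRNA. In the lower block the siRNA 1 circle stands alone on the left in nearly every gene, except SLCO2B1, where siRNA 2 stands alone on the right.

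Over all genes, each word had its lowest coefficient in the library it was chosen from. The coefficient of CTGCACA for siRNA 1 minus siRNA 2 was -0.21 on the log2 scale, the lowest t of all words, and that of AAGATCA was 0.20, the second highest t. Against the mean of the other 3 libraries, CTGCACA had a coefficient of -0.24 with siRNA 1 and 0.05 with siRNA 2, and AAGATCA had -0.20 with siRNA 2 and 0.06 with siRNA 1. The words that would pair with bases 2 to 8 of the opposite strand of the same 19 bases, AATGAGG and CACTGTG, had coefficients for siRNA 1 minus siRNA 2 of -0.01 and 0.01. Each word was chosen from these values, so these figures and those by word below are a description, and genes are not replicates.

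Genes with CTGCACA followed by A, the fullest match to a seed, had a median log2 ratio of -0.22 (350 genes), and those with another base after the word -0.11 (1288 genes). With only the last 6 bases followed by A the median was -0.05 (700 genes), with the last 6 bases alone 0.03 (1867 genes), and with none of these 0.04 (6293 genes). For AAGATCA the same order of classes gave 0.25 (396 genes), 0.11 (1027 genes), 0.12 (541 genes), 0.03 (1603 genes) and -0.03 (6931 genes), so that here the full word without the A and the shorter match with it were alike. The ranges between the quartiles overlapped widely from class to class, as the plot of site classes shows.

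**Figure D4:**
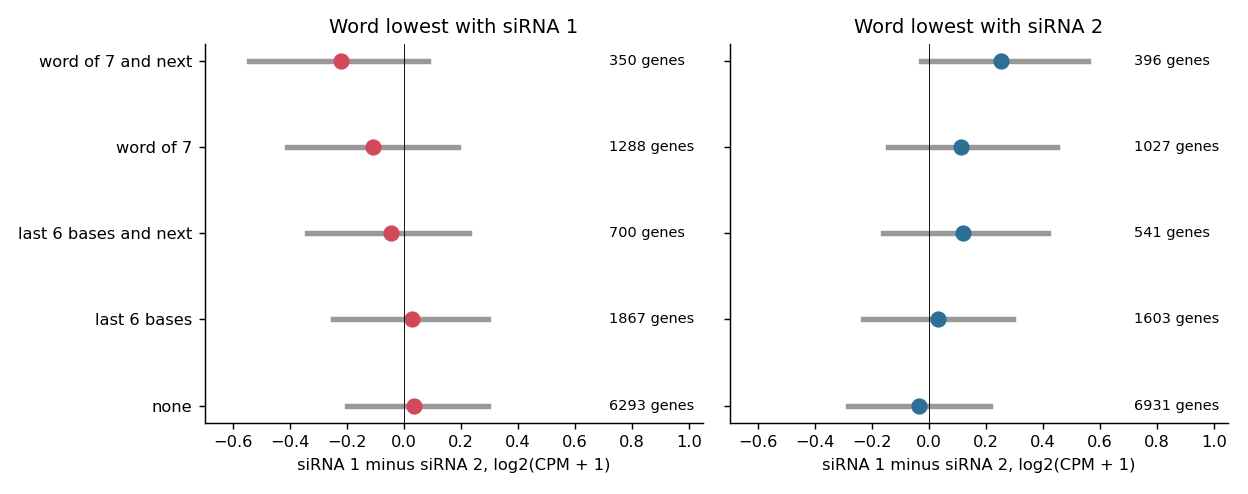
Median (dot) and range from the lower to the upper quartile (bar) of log2(CPM + 1) with siRNA 1 minus siRNA 2, by how fully the 3′ UTR matches the word that was lowest with siRNA 1 (left) or with siRNA 2 (right). "And next" means that the base after the word is an A. The medians go from 0.04 to -0.22 on the left and from -0.03 to 0.25 on the right, and the bars overlap.

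Medians were also taken by the place and number of words. A single CTGCACA within the first 500 bases of the 3′ UTR had a median of -0.23 (402 genes), and one farther on -0.08 (951 genes). For AAGATCA the values were 0.26 (254 genes) and 0.11 (924 genes). Genes with 2 copies of AAGATCA had a median of 0.23 (192 genes) against 0.14 with 1 copy (1178 genes), whereas 2 copies and 1 copy of CTGCACA differed little, at -0.13 (235 genes) and -0.12 (1353 genes). Genes with the word in a coding sequence and in no 3′ UTR had medians of -0.05 for CTGCACA (1788 genes) and 0.10 for AAGATCA (1761 genes), smaller than those with it in the 3′ UTR (-0.13 and 0.16).

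Among the genes with a 3′ UTR that were 2-fold lower with siRNA 1, 83 of 187 held CTGCACA (44.4%, against 15.6% of all 10498), and 16 held AAGATCA (8.56%, against 13.6%). Among the 238 higher genes, 81 held AAGATCA (34.0%) and 22 held CTGCACA (9.24%). Where siRNA 1 alone was 2-fold from the reference among the lower genes, 52 of 90 held CTGCACA (57.8%). Where siRNA 2 alone was so among the higher genes, 33 of 70 held AAGATCA (47.1%). The words and these genes were chosen from the same values. High shares of a word were therefore built in, and they are a description only. The 35 higher genes for which siRNA 1 alone was away from the reference held AAGATCA in 6 cases and neither word in 28 (80.0%), beside 74.4% with neither word over all genes. Of the 13 lower genes for which siRNA 2 alone was away from the reference, 4 held AAGATCA (30.8%) and 2 held CTGCACA (15.4%). UTR length and base content differed between the groups as well. The median 3′ UTR was 2247 bases long with 41.7% GC for the higher genes, 1428 bases with 49.3% GC for the lower genes and 1488 bases with 43.0% GC for all, and what part these had in the differences was not tested.

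Gene groups are described by the 44 lists that were compared, most of which had medians near that of all genes (0.01, with 3.93% of genes 2-fold different). The lists were made with earlier results of these data known, and no list was tested.

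Genes of the response to amino acid shortage, which ATF4 activates, were lower with siRNA 1, with a median of -0.43 over 29 genes, 22 of them below 0. The 5 that were 2-fold lower were ASNS, CHAC1, PHGDH, SLC7A11 and STC2, and 0 were 2-fold higher. ASNS, which makes asparagine, was at 38.4 CPM with control siRNA, 23.9 CPM with siRNA 1, 76.6 CPM with siRNA 2 and 64.9 CPM with DNMT3B-L siRNA (3.21-fold, interval 2.92 to 3.53). The glutathione-degrading enzyme CHAC1 was at 14.1, 12.8, 32.3 and 19.1 CPM, so that here siRNA 2 was high and siRNA 1 near control. SLC7A11, the cystine transporter, was at 72.5, 37.9, 101 and 47.9 CPM, and the hormone gene STC2 at 78.0, 77.3, 206 and 185 CPM. Only 4 of the 29 hold CTGCACA, SLC7A11 among them, and the median of the members without either word was also -0.43.

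Replication-dependent histone genes, whose mRNAs mostly lack a poly(A) tail, had the lowest median of the lists with at least 8 members (-0.61 over 10 genes, 9 of them below 0). HIST1H2BJ was at 7.02, 8.76, 22.1 and 8.87 CPM and the only 2-fold member, with siRNA 2 alone above the rest. HIST1H4H was at 15.6, 11.7, 22.5 and 11.7 CPM.

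Of 50 DNA replication genes 39 had a ratio above 0, beside 5608 of all 11075 genes, and their median was 0.20, but only 2 were past 2-fold. These were DUT and the origin recognition subunit ORC5 (15.4, 24.3, 11.3 and 29.2 CPM), and both hold AAGATCA. GINS1, a subunit of the replicative helicase, was at 41.4, 48.9, 25.3 and 70.3 CPM, with siRNA 2 the lowest. Homologous recombination and checkpoint genes had a median of 0.22 over 33 genes. EXO1, an exonuclease of DNA end resection, was at 43.7, 58.8, 21.1 and 70.5 CPM and 2.79-fold higher with siRNA 1 than with siRNA 2 (interval 2.52 to 3.10). The 45 mitosis genes had a median of -0.07 and 0 were 2-fold different. In G1/S control, cyclin D1 (CCND1, at 184, 419, 184 and 328 CPM) was higher and the CDK4 and CDK6 inhibitor CDKN2C (124, 54.9, 129.99 and 96.5 CPM) lower with siRNA 1.

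TGF-beta signalling had the highest median of the lists with at least 8 members (0.38 over 24 genes, 18 above 0, with 2 genes 2-fold higher and 0 lower). The coreceptor TGFBR3 was at 24.6 CPM with control siRNA, 44.2 CPM with siRNA 1, 13.9 CPM with siRNA 2 and 30.05 CPM with DNMT3B-L siRNA. LTBP2, a matrix protein related to those that hold latent TGF-beta, was at 34.3, 46.3, 22.0 and 17.5 CPM. Both hold AAGATCA, and the members without either word had a median of 0.24. The targets ID1 (-0.78) and ID2 (-0.73), which answer mainly to BMP, were at the lower end of the list.

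Cell adhesion and matrix genes went both ways. Of 34 integrin and matrix genes, 5 were 2-fold higher and 2 were 2-fold lower with siRNA 1, with a median of 0.24. The laminin receptor subunit ITGB4 was at 127, 135, 46.8 and 63.4 CPM, the membrane protease MMP14 at 75.2, 94.1, 34.5 and 70.6 CPM and ITGA3 at 1264, 1561, 707 and 718 CPM. ITGA5, the fibronectin receptor subunit, was lower with siRNA 1 (177, 106, 249 and 197 CPM). Among 25 epithelial and junction genes (median 0.34), the tight junction protein OCLN was at 27.0, 30.1, 9.11 and 41.0 CPM and CDH1, E-cadherin, at 19.95, 19.97, 6.43 and 12.5 CPM, with siRNA 2 the lowest in both. The E-cadherin partner CTNND1 was at 376, 174, 421 and 345 CPM, with siRNA 1 the lowest, and has 15 of 19 bases of site 1 in its coding sequence as well as CTGCACA in the 3′ UTR. The 14 mesenchymal genes had a median of 0.25, with 10 above 0, and 1 was 2-fold higher and 2 were 2-fold lower with siRNA 1. The calcium-binding protein S100A4 was the higher one, at 46.8, 73.1, 29.5 and 23.7 CPM. TAGLN, an actin-binding protein of contractile cells and 1 of the lower ones, was at 49.2, 45.4, 126 and 91.3 CPM, and CTGF, a matrix protein induced by YAP, at 22.0, 23.2, 64.2 and 37.3 CPM, both highest with siRNA 2. YAP1 itself was lowest with siRNA 2 (215, 249, 107 and 229 CPM) and holds AAGATCA. In bulk RNA, less of a transcript per cell and fewer cells that make it cannot be told apart.

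**Figure D5:**
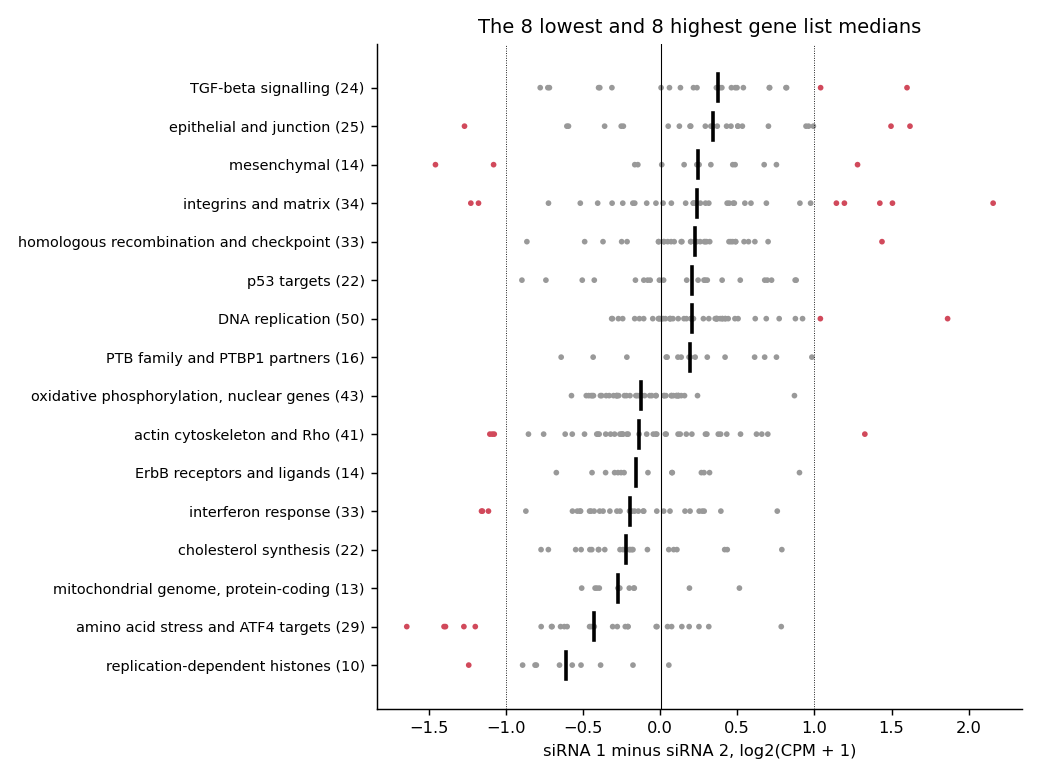
Log2(CPM + 1) with siRNA 1 minus siRNA 2 for each member (points) of the 8 gene lists with the lowest and the 8 with the highest median among lists of at least 8 members, with the number compared in parentheses. Coloured points are at least 2-fold different, thick bars are list medians, the thin line is the median of all genes (0.01) and dotted lines mark 2-fold. Histone genes (-0.61) and amino acid stress genes (-0.43) lie lowest and TGF-beta signalling genes (0.38) highest, and members of each list are spread around its median.

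In metabolism and protein synthesis few genes were past 2-fold. Of 76 cytosolic ribosomal protein genes, RPS20 was the only one 2-fold different and the list median was 0.02. MRPL17, a protein of the mitochondrial ribosome, was at 63.8, 15.7, 43.3 and 74.4 CPM. In glycolysis PGAM1 and PGK1 (479, 205, 458 and 473 CPM) were 2-fold lower with siRNA 1 and 0 of 22 were higher, at a list median of -0.08. The ferritin subunit FTH1, which has many processed copies that can share its reads, was at 910.4, 285, 749.9 and 689.9 CPM. Cholesterol synthesis genes had a median of -0.22 over 22 genes, 16 of them below 0, with 0 past 2-fold. Of the 13 mitochondrial mRNA genes 11 were lower with siRNA 1 than with siRNA 2 (median -0.27), whereas the mitochondrial large ribosomal RNA MT-RNR2, named after its values were seen because it is the most abundant gene past 2-fold, was at 8726 CPM with control siRNA, 16723 CPM with siRNA 1, 7706 CPM with siRNA 2 and 7480 CPM with DNMT3B-L siRNA. MT-RNR1, the small ribosomal RNA of the same organelle, was at 672, 630, 578 and 732 CPM.

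Signalling and defence genes showed a few clear members. Interferon response genes had a median of -0.20 over 33 genes, with the RNA sensors OAS1 (14.0, 5.69, 13.9 and 10.4 CPM) and OAS2 (19.7, 7.85, 18.7 and 12.1 CPM) and the antiviral GTPase MX1 (58.6, 33.5, 73.5 and 59.2 CPM) 2-fold lower with siRNA 1 and 0 higher. Immediate early genes and feedback genes of the MAPK pathway, taken as 1 list, were split. EGR1 (6.04, 3.94, 11.9 and 6.0003 CPM), ETV4, ETV5 and SPRY4 were 2-fold lower and JUNB was 2-fold higher with siRNA 1. The list median was 0.15, whereas the members without either word had a median of -0.43. The death-promoting BH3 proteins BMF (7.37, 15.4, 5.78 and 2.24 CPM) and BCL2L11 (44.3, 84.5, 34.6 and 33.0 CPM) were highest with siRNA 1. CASP9, the initiator caspase, was at 20.2, 15.8, 38.7 and 27.4 CPM, highest with siRNA 2. AGO1, an Argonaute protein that binds small RNAs, was at 96.4, 106, 46.5 and 75.1 CPM and holds AAGATCA in its 3′ UTR.

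Genes tied to PTBP1 itself were mostly under 2-fold. The 16 members of the PTB family and its partners had a median of 0.19 and 0 were past 2-fold. HNRNPL, a related splicing repressor, was at 211.5, 325, 192 and 236 CPM. Of 19 genes with exons that PTBP1 is known to regulate, CD44 (261, 460.5, 174 and 172 CPM) was the only one past 2-fold. CAV1, the coat protein of caveolae, was lower with both siRNAs, at 353 CPM with control siRNA, 136 CPM with siRNA 1, 92.9 CPM with siRNA 2 and 345 CPM with DNMT3B-L siRNA, a difference between the siRNAs of 1.46-fold (interval 1.38 to 1.54). The 3′ UTR of CAV1 holds both CTGCACA and AAGATCA, and its coding sequence also holds CTGCACA. What part the words had in its levels was not tested. SNAP25 was at 2.75 CPM, 5.98 CPM, 16.3 CPM and 1.48 CPM, higher with both but 2.72-fold more so with siRNA 2 (interval 2.24 to 3.32), and holds CTGCACA in its 3′ UTR. UHRF1, which guides DNA methylation to newly copied DNA, was at 213, 348, 137 and 127 CPM and was highest with siRNA 1. DNMT3B was at 9.77, 8.43, 13.1 and 5.46 CPM.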

How the data were processed

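Reads were processed with HISAT2 2.1.0, HTSeq 0.6.1 and bcl2fastq 2.19.1 on hg19 (GRCh37), according to the submitters' processing notes, which give no order or role. CPM values, 1 set per library, were deposited by the authors, and why some genes are missing from a library was not given in the sources used. Between 98.99% and 99.20% of the values of a library were whole multiples of 1 read pair within 0.001, and values at 0.5 of a pair occurred in 0 genes compared. The recovered totals were 22511596, 24088975, 23163964 and 22332245 read pairs for control siRNA, PTBP1 siRNA 1, PTBP1 siRNA 2 and DNMT3B-L siRNA. No count test was run, since 1 library per siRNA leaves no residual degrees of freedom. Genes missing from a table reached at most 4.70 CPM. Log2 values carry a pseudocount of 1, and fold changes are CPM ratios without it. Ratio intervals are exact Clopper-Pearson intervals (SciPy 1.17.1) and cover counting error only.

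Words of 7 bases found in at least 200 genes were regressed in Python 3.11.15 on 10499 genes (94.8%) whose longest 3′ UTR in GENCODE v29 has at least 50 bases. Coordinates are GRCh38, from this annotation only. Word medians leave out PTBP1. The 2-fold count and the word regression were tried on simulated data with counting error or independent noise only. These data held no spread between cultures, so the trial does not bear on that spread. TMM (edgeR 4.0.16) and DESeq2 1.42.0 factors were computed in R 4.3.3 from recovered read pairs.

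The genes, lists and tests were chosen with earlier results of these data known. Genes were named by a rule: the 15 highest and 15 lowest ratios, the 5 farthest above and below the other 3 libraries for each PTBP1 siRNA, the 3 members of each list with the largest absolute log2 ratio, and PTBP1, PTBP2, PTBP3, DNMT3B and RPS20, without XIST and Y-linked genes. Other genes were named after their values were seen.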

Additional observations from a re-analysis of the deposited data

How the results depend on the processing

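Every count rests on 1 library per siRNA, so no setting shows the spread between cultures. With a pseudocount of 5 the counts were 136 genes higher and 124 lower with siRNA 1, 146, 83, 67 and 25 genes apart for siRNA 1, siRNA 2, DNMT3B-L siRNA and control siRNA, and 77 genes for siRNA 1 alone, 32 for siRNA 2 alone and 0 for both against the reference. With an average CPM of at least 20 156 genes were higher, siRNA 2, DNMT3B-L siRNA and control siRNA had 116, 82 and 33 genes apart, and 51 genes were of siRNA 2 alone and 1 of both. With no filter on low values control siRNA had 102 genes apart. PTBP1 siRNA 1 had the most genes apart and control siRNA the fewest under 9 of 9 settings. The amino acid stress median was -0.34 at a pseudocount of 5, and 0 of 44 list medians and 0 of 153 named genes changed sign with a pseudocount of 0.1 or 5, TMM factors or DESeq2 size factors. Of 83 named genes past 2-fold, 16 were under it at a pseudocount of 5. Without adjustment for UTR length and GC, the coefficients of CTGCACA were -0.19 between the siRNAs and -0.22 in its own library. With the word in any annotated 3′ UTR, AAGATCA ranked second lowest with siRNA 2 (-0.18). The cause of these shifts was not tested. No paired analysis was possible because each group has 1 library.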
